A study of Mus musculus with 4 samples.

Results

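The genes that make cholesterol and fatty acids were followed in mouse embryonic stem cells after acute loss of Smarca4, the gene of the chromatin remodeling ATPase BRG1. They were chosen by symbol, as 33 genes of 24428 in the count files: 7 of the mevalonate pathway, 11 of the sterol branch, 3 regulators of the SREBP system, 4 of sterol uptake and transport and 8 of fatty acid synthesis. All 33 were listed in the files and 32 passed the filter on low counts. Hmgcs1, the synthase that opens the committed route to mevalonate, was listed at 0 reads in each of the 4 libraries, so no statement on it was possible. Of the files' 24428 genes, 4610 had no read in any library.

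The cells were of the 129SvEv background and carried loxP-flanked Smarca4 alleles and a tamoxifen-activated Cre (CreER), and they were grown with serum and the cytokine LIF. One group (n = 2 libraries) was given 4-hydroxytamoxifen at 0.8 uM over 48 h and harvested at 72 h from the first dose, and the other (n = 2) was given ethanol, its vehicle, on that schedule. The genotype label does not differ between the 4 libraries, which are told apart by treatment only. Neither the number of clones nor separate cultures are stated in the labels. The p-values therefore speak of the spread among 4 libraries, part of which may be technical. Cells given the drug without loxP sites were not analysed here, and deletion, drug and active Cre cannot be told apart. Lower RNA per cell and fewer expressing cells cannot be told apart in these bulk samples.

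Cells build cholesterol from acetyl-CoA through mevalonate, isoprenoid units, squalene and lanosterol. SREBP transcription factors, made from Srebf1 and Srebf2 and held in the endoplasmic reticulum by Insig proteins when sterols are plentiful, switch on most enzymes of this route and the genes of sterol uptake and fatty acid synthesis. Oxysterol-activated LXR receptors act on the export side, where Abca1 and Abcg1 are their classical targets.

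Among the 32 genes tested, 14 fell and 5 rose in the tamoxifen libraries (quasi-likelihood test of edgeR, threshold 0.05 on the p adjusted over all genes). Thus 43.8% of them were lower, against 22.9% of all 14479 genes tested, and 15.6% were higher, against 21.5% of all genes. Together 59.4% were called, against 44.5% of all genes. The genes that fell were spread over all 5 groups and included 7 of 11 sterol branch genes, of which none rose, although total counts, upper-quartile factors or a replicate block each called 1 of them higher (Ebp). The median log2 fold change was -0.28 over the 32 genes and -0.01 over all genes tested. Scaling by total counts alone moved the median of all genes to 0.12 and the split to 4082 higher and 2520 lower genes, against 3119 and 3322 with TMM factors, and called 6 of the 32 higher and 13 lower. Both tamoxifen libraries lay below both ethanol libraries for 20 of the 32 genes and above them for 9, against 37.0% and 37.0% of all genes (74.0% without overlap in either direction).

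Genes rich in G and C tended to be higher with tamoxifen throughout these libraries, and the same held among the 32 genes. Between log2 fold change and transcript GC content the Spearman correlation was 0.606 across the 32 genes and 0.633 across 14394 genes, which share the same 4 libraries. The 5 genes that rose had a median GC content of 57.0% and the 14 that fell a median of 47.7%. Values from a fit in which the GC trend of each library was removed are therefore given beside those of each called gene that is named. With this GC correction 13 of the 32 genes were lower (40.6%, against 10.7% of all genes) and 1 was higher (3.13%, against 9.88%), with 43.8% called in all, against 20.6% of all genes. The 13 were all among the 14 that fell without the correction, and the exception was Hsd17b7. With the correction but without tamoxifen replicate 2, 7 of the 32 were lower and 0 higher, and over all genes 632 were lower and 557 higher. The median of the 32 genes with the correction was -0.38, and that of all genes was -0.01.

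**Figure D1:**
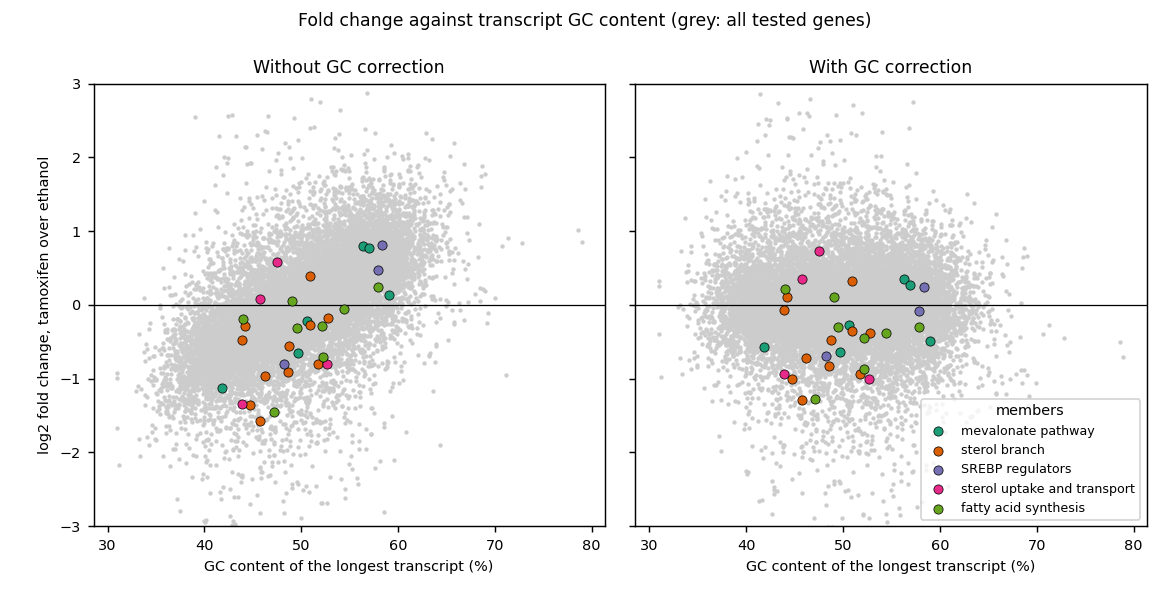
Log2 fold change (tamoxifen over ethanol, vertical axis) against GC content of the longest transcript (percent, horizontal axis), without (left) and with (right) GC correction. Grey points are all tested genes with a GC value and coloured points the 32 genes by group. The vertical axis ends at 3 in either direction and leaves out 27 genes. The correlation of 0.606 across the 32 genes on the left is 0.171 on the right, where most of them still lie below 0.

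Reads in genes ranged from 13458463 to 17191445 in the tamoxifen libraries and from 16130823 to 27086142 in the ethanol libraries. The ribosomal RNA gene Rn45s took 0.653 and 0.691% of reads in genes with tamoxifen, against 0.391 and 0.299% with ethanol, and reads in no gene were 37.6 and 35.0% of the total with tamoxifen, against 51.7 and 40.8% with ethanol. Smarca4 had 68.5 and 68.7 CPM (the CPM unit of edgeR, a count relative to library size, scaled by TMM factors) with tamoxifen, against 328 and 409 CPM with ethanol, a log2 fold change of -2.43 ± 0.17 (SE; edgeR, adjusted p = 1.08e-05). Its value was -2.85 with GC correction. Of 10 stem cell markers 1 was higher and 2 were lower, and their summed level was 5701 and 5399 CPM with tamoxifen, against 5687 and 5605 CPM with ethanol. Fibroblast markers were higher, 11 of 15 tested and none lower, with summed levels over all 16 of 3179 and 3362 CPM with tamoxifen, against 2356 and 2094 CPM with ethanol. None of the 16 was at 0 in all libraries, although Lum, a fibroblast proteoglycan gene, had 6 and 4 reads with tamoxifen and 4 and 0 reads with ethanol. Of 14 primitive endoderm markers 4 were higher and 1 was lower, with summed levels of 3006 and 2807 CPM with tamoxifen, against 2788 and 2445 CPM with ethanol. As shares, 10% of stem cell, 73.3% of fibroblast and 28.6% of endoderm markers were higher, against 21.5% of all genes. Lower were 20%, 0% and 7.14%, against 22.9%. After GC correction 30%, 73.3% and 7.14% were higher, against 9.88% of all genes, and 30%, 0% and 7.14% were lower, against 10.7%. The part of such cells, and of the read shares above, in the results below was not tested.

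**Figure D2:**
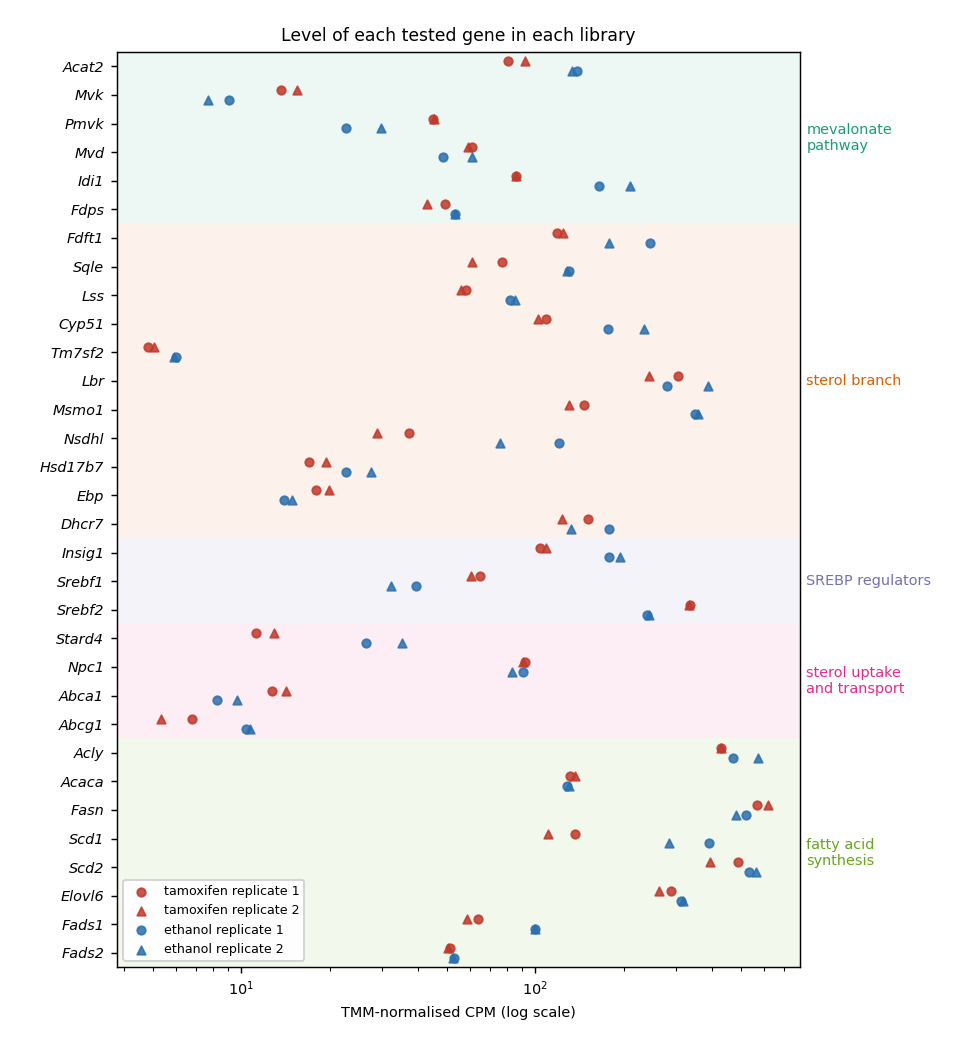
Level of each of the 32 tested genes in each library, as TMM-normalised CPM on a log scale (horizontal axis), in pathway order from top to bottom. Red symbols are tamoxifen and blue symbols ethanol libraries, circles replicate 1 and triangles replicate 2. For Msmo1 the tamoxifen libraries lie at 146 and 130 CPM and the ethanol libraries at 349 and 359 CPM.

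The DNA before the start of these genes is shown for 5 genes that fell in every fit that left out 1 library without GC correction (Idi1, Cyp51, Msmo1, Nsdhl and Insig1) and, beside them, for 2 that rose (Mvk and Srebf2). The increases of Mvk and Srebf2 were not called with GC correction. Each sequence is the 250 bases before the most upstream start in the RefSeq promoter table (build GRCm38.p6), read 5′ to 3′ on the strand of the gene. This build differs from the mm9 build of the counts and was used for sequence only. Capitals mark the box CCAAT, bound by the NF-Y complex, a partner of SREBP at sterol genes, in either orientation (CCAAT or ATTGG), and in Nsdhl also a match to a relaxed form of the sterol element, a form added after the windows had been seen.
Idi1 (chr13:8885356-8885605, plus strand): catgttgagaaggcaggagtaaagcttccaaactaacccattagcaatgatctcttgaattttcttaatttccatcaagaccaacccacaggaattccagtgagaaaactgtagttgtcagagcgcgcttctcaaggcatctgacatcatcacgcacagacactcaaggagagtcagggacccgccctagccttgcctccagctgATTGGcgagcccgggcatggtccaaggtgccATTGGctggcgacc
Cyp51 (chr5:4104698-4104947, minus strand): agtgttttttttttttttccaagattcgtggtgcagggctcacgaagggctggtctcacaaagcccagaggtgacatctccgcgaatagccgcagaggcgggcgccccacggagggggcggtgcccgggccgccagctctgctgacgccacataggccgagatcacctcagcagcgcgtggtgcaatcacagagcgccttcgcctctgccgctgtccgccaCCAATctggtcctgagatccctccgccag
Msmo1 (chr8:64733579-64733828, minus strand): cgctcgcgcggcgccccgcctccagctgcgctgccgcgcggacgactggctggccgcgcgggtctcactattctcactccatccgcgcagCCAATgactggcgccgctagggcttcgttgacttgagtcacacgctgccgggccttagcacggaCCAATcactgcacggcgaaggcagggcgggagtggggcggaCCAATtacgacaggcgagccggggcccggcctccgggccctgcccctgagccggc
Nsdhl (chrX:72918271-72918520, plus strand): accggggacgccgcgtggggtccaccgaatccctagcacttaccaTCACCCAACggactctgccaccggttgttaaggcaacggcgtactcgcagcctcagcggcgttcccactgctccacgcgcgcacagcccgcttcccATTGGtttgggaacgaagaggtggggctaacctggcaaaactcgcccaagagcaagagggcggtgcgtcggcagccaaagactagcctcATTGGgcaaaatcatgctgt
Insig1 (chr5:28071162-28071411, plus strand): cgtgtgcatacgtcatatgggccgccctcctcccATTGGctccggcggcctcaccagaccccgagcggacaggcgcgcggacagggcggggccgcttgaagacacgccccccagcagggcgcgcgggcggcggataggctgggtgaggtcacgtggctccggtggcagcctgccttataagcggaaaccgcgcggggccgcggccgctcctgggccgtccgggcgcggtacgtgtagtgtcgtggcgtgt
Mvk (chr5:114444019-114444268, plus strand): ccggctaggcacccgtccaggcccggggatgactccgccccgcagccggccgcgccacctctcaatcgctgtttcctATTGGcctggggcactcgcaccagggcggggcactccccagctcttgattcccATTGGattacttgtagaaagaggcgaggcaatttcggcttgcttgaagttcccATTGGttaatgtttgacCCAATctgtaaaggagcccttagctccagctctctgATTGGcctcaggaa
Srebf2 (chr15:82147019-82147268, plus strand): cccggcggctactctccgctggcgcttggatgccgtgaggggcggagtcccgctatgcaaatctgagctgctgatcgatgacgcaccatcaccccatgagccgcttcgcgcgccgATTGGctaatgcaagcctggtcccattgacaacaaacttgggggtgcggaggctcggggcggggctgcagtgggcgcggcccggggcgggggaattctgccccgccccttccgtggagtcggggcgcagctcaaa

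A window was found for 24 of the 33 genes. Among the genes that fell 8 had a window, while Fdft1, Sqle, Stard4, Abcg1, Scd1 and Fads1 had none. All 5 genes that rose had a window. CCAAT, searched on both strands, was in 17 of the 24 windows (70.8%), against 34.5% of 27025 windows in the whole table and 36.6% of the 10918 windows of tested genes. It was in 7 of the 8 windows of genes that fell, in 4 of the 5 of genes that rose and in 5 of the 10 of genes that were not called. Thus it marked genes called in both directions without GC correction: Mvk, which rose, had 5 such boxes and Msmo1, which fell, had 3. The 4 that rose and had a box (Mvk, Pmvk, Srebf1 and Srebf2) were not called with GC correction. Nor was Hsd17b7, which fell and had boxes. Abca1, called higher in both fits, had no box. The sterol element core TCACNCCAC, searched on both strands, was in 1 of the 24 windows, that of Hmgcs1, against 1.03% of all windows, and the relaxed form TCACNCNAC, which includes every match of the core, was in 2 (8.33%, Hmgcs1 and Nsdhl), against 2.32%. The E-box CACGTG, its own complement, was in 3 of 24 windows (12.5%; Hsd17b7, Insig1 and Abca1), against 6.04% of all windows and 8.5% of those of tested genes. The GC box GGGCGG, searched on both strands, was in 19 of 24 (79.2%), against 33% of all windows and 59.8% of those of tested genes. These matches describe the letters of the windows and were not tested.

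**Figure D3:**
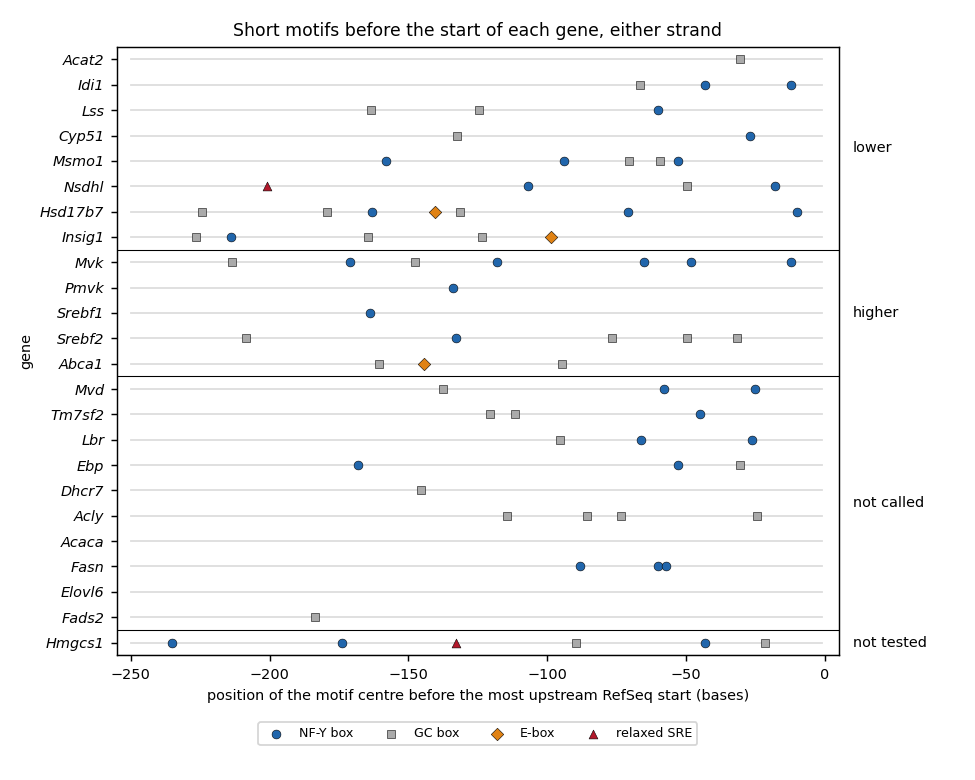
Position of each motif match (either strand) in the 250 bases before the most upstream RefSeq start (horizontal axis, bases; the start is at the right) in the 24 genes with a window, grouped by whether the gene was lower, higher, not called or not tested. Symbols are the CCAAT box of NF-Y, the GC box, the E-box and the relaxed sterol element. By the calls without GC correction, CCAAT boxes are in 7 of 8 lower, 4 of 5 higher and 5 of 10 uncalled genes.

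The mevalonate pathway, which turns acetyl-CoA into the isoprenoid farnesyl pyrophosphate, was split: Acat2 and Idi1 fell, Mvk and Pmvk rose, and Mvd and Fdps did not pass the test. Acat2, the cytosolic thiolase that joins acetyl-CoA units at the entry of the route, had 80.7 and 92.0 CPM with tamoxifen, against 138 and 133 CPM with ethanol. Its log2 fold change was -0.65 ± 0.15 (SE; edgeR, adjusted p = 0.00391), and -0.64 with GC correction. The groups did not overlap, and the call was lost without tamoxifen replicate 1 (-0.56).

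Mvk, mevalonate kinase, had 13.6 and 15.5 CPM with tamoxifen, against 9.06 and 7.72 CPM with ethanol (0.80 ± 0.18, SE; edgeR, adjusted p = 0.00390). Pmvk, the next kinase, had 44.7 and 45.1 CPM with tamoxifen, against 22.6 and 29.9 CPM with ethanol (0.77 ± 0.17; edgeR, adjusted p = 0.00325). Both were higher in each tamoxifen library than in either ethanol library. Both calls ended with GC correction (0.35 for Mvk and 0.27 for Pmvk); the transcripts have a GC content of 56.3 and 57.0%. Mvd, the decarboxylase that makes isopentenyl pyrophosphate, has the highest GC content of the 32 genes (59.0%). It had 61.1 and 59.1 CPM with tamoxifen, against 48.5 and 60.8 CPM with ethanol, with overlapping groups (0.13 ± 0.16). With GC correction its value was -0.49 (edgeR, adjusted p = 0.0501), and it was called lower in the corrected fits with the replicate number as a block (-0.47; adjusted p = 0.0199) and without ethanol replicate 1 (-0.69).

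Idi1, the isomerase that makes dimethylallyl pyrophosphate, fell 2.17-fold. It had 86 CPM in each tamoxifen library, against 164 and 210 CPM with ethanol (-1.12 ± 0.16, SE; edgeR, adjusted p = 3.20e-04). Its transcript has the lowest GC content of the 32 genes (41.9%), and the log2 fold change was -0.57 with GC correction. It remained called with the correction, but not when tamoxifen replicate 1 (-0.60) or tamoxifen replicate 2 (-0.53) was also left out. Fdps, which makes farnesyl pyrophosphate, had 49.4 and 42.8 CPM with tamoxifen, against 53.3 CPM in each ethanol library. Its log2 fold change was -0.21 ± 0.15, with 2 SE either way spanning -0.51 to 0.08.

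The sterol branch, from squalene to cholesterol, was lower as far as it was called: 7 of 11 genes fell and none rose (1 did under the scalings named above), which is 63.6% lower against 22.9% of all genes. With GC correction 6 of 11 fell, or 54.55% against 10.7% of all genes. A corrected fit lacking tamoxifen replicate 2 kept the sign of these 6. Their log2 fold changes there were -0.96 (Fdft1), -0.65 (Sqle), -0.44 (Lss), -0.65 (Cyp51), -0.90 (Msmo1) and -1.10 (Nsdhl). Fewer genes were called lower in that fit, both in this branch and over all genes. The summed level of the 11 genes was 1043 and 912 CPM with tamoxifen, against 1604 and 1629 CPM with ethanol. The 6 mevalonate pathway genes summed to 335 and 340 CPM with tamoxifen, against 436 and 494 CPM with ethanol. The 8 fatty acid synthesis genes summed to 2158 and 2059 CPM with tamoxifen, against 2507 and 2497 CPM with ethanol.

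The enzymes that make and close squalene fell together. Fdft1, squalene synthase, had 119 and 124 CPM with tamoxifen, against 245 and 178 CPM with ethanol (-0.80 ± 0.17, SE; edgeR, adjusted p = 0.00293; -0.94 with GC correction). Sqle, the epoxidase after it and a control point of the sterol branch, had 77.3 and 60.9 CPM with tamoxifen, against 130 and 128 CPM with ethanol (-0.90 ± 0.16; edgeR, adjusted p = 9.09e-04; -0.82 with GC correction). Lss, the cyclase that forms lanosterol, had 58.0 and 55.9 CPM with tamoxifen, against 81.9 and 85.1 CPM with ethanol (-0.55 ± 0.14; edgeR, adjusted p = 0.00770; -0.48 with GC correction). For all of these genes both tamoxifen libraries were below both ethanol libraries. Without tamoxifen replicate 1 (-0.58) or without tamoxifen replicate 2 (-0.52) Lss was not called.

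Genes of the demethylation steps after lanosterol also fell. Cyp51, the lanosterol demethylase, had 109 and 102 CPM with tamoxifen, against 177 and 234 CPM with ethanol (-0.97 ± 0.17, SE; edgeR, adjusted p = 8.90e-04; -0.72 with GC correction). Msmo1, the methyl sterol oxidase that acts after the reductases Tm7sf2 and Lbr, had 146 and 130 CPM with tamoxifen, against 349 and 359 CPM with ethanol (-1.36 ± 0.15; edgeR, adjusted p = 1.07e-04). It fell 2.56-fold, and by 1.01 on the log2 scale with GC correction. Nsdhl, the sterol dehydrogenase that works with Msmo1, had 37.3 and 29 CPM with tamoxifen, against 121 and 75.9 CPM with ethanol. It fell 2.97-fold (-1.57 ± 0.23; edgeR, adjusted p = 7.18e-04; -1.29 with GC correction), but the ethanol libraries stood far apart, and without ethanol replicate 1 its value was -1.20. Hsd17b7, the ketoreductase of the same complex, had 16.9 and 19.4 CPM with tamoxifen, against 22.7 and 27.6 CPM with ethanol (-0.47 ± 0.17; edgeR, adjusted p = 0.0374). That call was lost with GC correction (-0.06), by DESeq2 (-0.47), with total counts (-0.35), with upper-quartile factors (-0.41), and when ethanol replicate 2 (-0.31) or either tamoxifen library (-0.38 and -0.57) was left out.

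The remaining sterol enzymes did not pass the test. Tm7sf2 and Lbr both encode sterol C14 reductases, Lbr being also the lamin B receptor of the inner nuclear membrane. Tm7sf2 had 4.81 and 5.04 CPM with tamoxifen, against 5.99 and 5.91 CPM with ethanol, and Lbr had 306 and 243 CPM with tamoxifen, against 280.2 and 387 CPM with ethanol. Per kilobase of transcript Lbr was the more abundant of the pair in every library, with 87.2 and 69.3 CPM per kb with tamoxifen and 79.8 and 110.2 CPM per kb with ethanol, while Tm7sf2 had 1.56 and 1.64 CPM per kb with tamoxifen and 1.94 and 1.92 CPM per kb with ethanol. Lbr was called lower only without ethanol replicate 1 (-0.49, against -0.28 with all libraries), and its value was 0.11 with GC correction.

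Ebp, the sterol isomerase, which is also known as a binding site of tamoxifen and related drugs, was the only sterol branch gene with both tamoxifen libraries above both ethanol libraries. It had 18 and 19.9 CPM with tamoxifen, against 13.9 and 14.9 CPM with ethanol (0.39 ± 0.16, SE; edgeR, adjusted p = 0.0656). It passed the test with total counts (0.52), with upper-quartile factors (0.45) and with the replicate number as a block (0.40; edgeR, adjusted p = 0.0308). Dhcr7, the reductase that yields cholesterol, had 151 and 123 CPM with tamoxifen, against 177 and 133 CPM with ethanol, with overlapping groups. Its log2 fold change was -0.18 ± 0.17, with 2 SE either way spanning -0.52 to 0.17, and -0.38 with GC correction. It was called lower with GC correction when the replicate number was also a block (-0.37; edgeR, adjusted p = 0.0213) or ethanol replicate 2 was also left out (-0.56), and without ethanol replicate 1 the uncorrected value was 0.05.

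**Figure D4:**
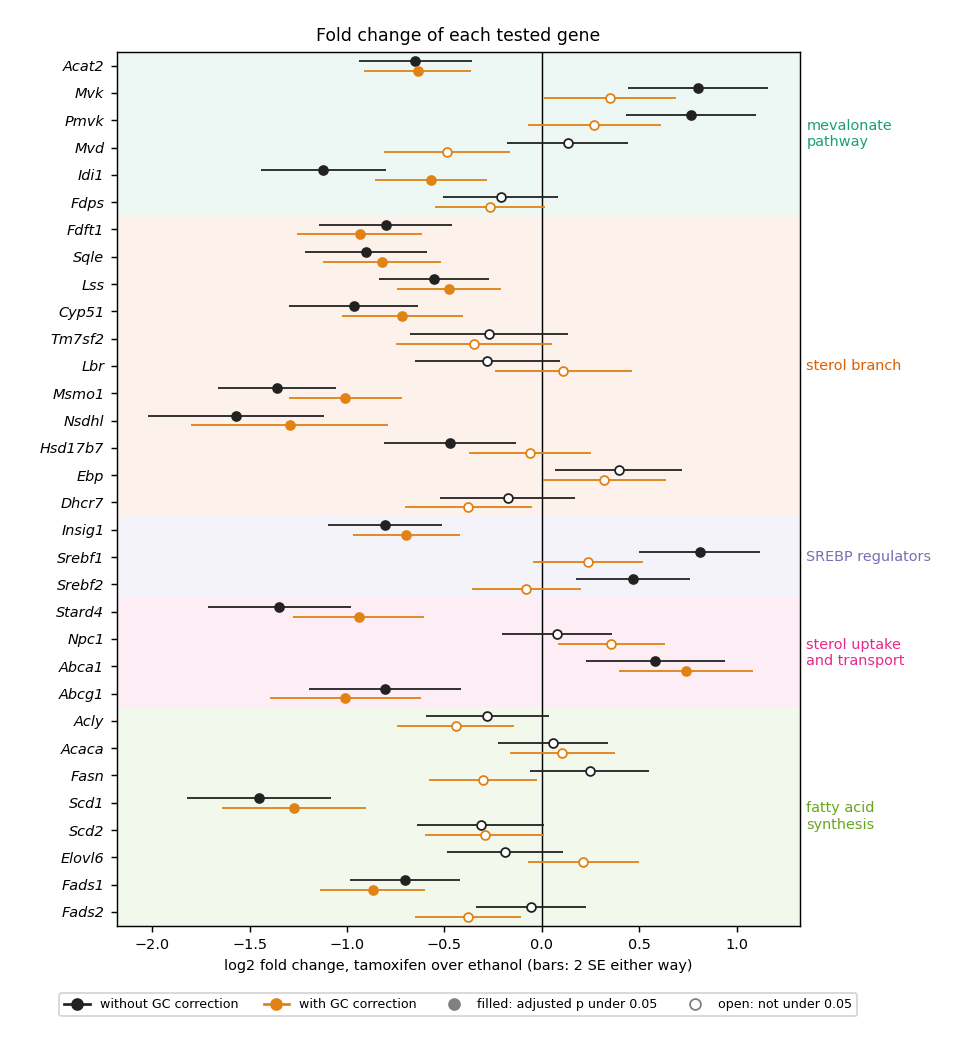
Log2 fold change of tamoxifen over ethanol (horizontal axis) for the 32 tested genes in pathway order, without GC correction (black) and with it (orange). Bars are 2 SE either way, filled points have an adjusted p under 0.05 (edgeR quasi-likelihood test) and open points do not. In the sterol branch 7 black points are filled and these lie left of 0, whereas Mvk, Pmvk, Srebf1 and Srebf2 are filled in black and open in orange.

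Of the SREBP regulators, Insig1 fell while both SREBP genes rose. Insig1, which retains SREBP in the endoplasmic reticulum and is itself an SREBP target, had 104 and 109 CPM with tamoxifen, against 178 and 194 CPM with ethanol (-0.81 ± 0.15, SE; edgeR, adjusted p = 0.00117; -0.70 with GC correction). Srebf1, which drives mainly fatty acid genes, had 64.7 and 60.3 CPM with tamoxifen, against 39.2 and 32.3 CPM with ethanol (0.81 ± 0.15; edgeR, adjusted p = 0.00159). Srebf2, which drives mainly cholesterol genes, had 335 and 333 CPM with tamoxifen, against 239 and 243 CPM with ethanol (0.47 ± 0.15; edgeR, adjusted p = 0.0210). The groups did not overlap for any of these genes. The increases of both SREBP genes ended with GC correction (0.24 for Srebf1; -0.08, so with the sign turned, for Srebf2), and their transcripts have a GC content of 58.4 and 57.9%. The uncorrected call of Srebf2 also ended without tamoxifen replicate 1 (0.46) or tamoxifen replicate 2 (0.48), with almost the same value. Per kilobase of transcript, the level of Srebf1 relative to that of Srebf2 was 0.228 and 0.214 with tamoxifen and 0.194 and 0.157 with ethanol.

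Sterol uptake and transport genes moved both ways: Stard4 and Abcg1 fell, Abca1 rose, and Npc1 did not pass the test. Stard4, a cytosolic sterol carrier and SREBP target, had 11.3 and 13 CPM with tamoxifen, against 26.4 and 35.1 CPM with ethanol. It fell 2.55-fold (-1.35 ± 0.18, SE; edgeR, adjusted p = 2.49e-04; -0.94 with GC correction). Npc1, the lysosomal cholesterol exporter, had 92.0 and 91.0 CPM with tamoxifen, against 90.6 and 83.0 CPM with ethanol, with 2 SE either way spanning -0.20 to 0.36 on the log2 scale. It was called higher with GC correction when the replicate number was also a block (0.36) or ethanol replicate 1 was also left out (0.44).

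The exporters Abca1 and Abcg1, which load cholesterol onto lipoproteins, moved in opposite directions. Abca1 had 12.7 and 14.2 CPM with tamoxifen, against 8.27 and 9.64 CPM with ethanol (0.58 ± 0.18, SE; edgeR, adjusted p = 0.0190; 0.74 with GC correction). It was the one gene of the 32 that was called higher in both fits, and it was not called by DESeq2 (0.58) or without tamoxifen replicate 2 (0.50). Abcg1 had 6.79 and 5.32 CPM with tamoxifen, against 10.4 and 10.7 CPM with ethanol (-0.81 ± 0.20; edgeR, adjusted p = 0.00591; -1.01 with GC correction), and was not called without tamoxifen replicate 2 (-0.63). Both rest on few reads, 180 and 253 with tamoxifen against 127 and 251 with ethanol for Abca1, and 96 and 95 with tamoxifen against 159 and 279 with ethanol for Abcg1.

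In fatty acid synthesis 2 of 8 genes fell, Scd1 and Fads1, both desaturases, and none rose. That is 25% lower, near the 22.9% of all genes, and 25% with GC correction, against 10.7% of all genes. Neither the enzymes that make palmitate nor the elongase passed the test. Acly, which supplies cytosolic acetyl-CoA from citrate, had 428.6 and 429 CPM with tamoxifen, against 470.4 and 571 CPM with ethanol (-0.28 ± 0.16, SE). It was called lower with the replicate number as a block (-0.27; edgeR, adjusted p = 0.0481) and without ethanol replicate 1 (-0.41). Acaca, the acetyl-CoA carboxylase, had 131 and 137 CPM with tamoxifen, against 128 and 129.6 CPM with ethanol (0.06 ± 0.14).

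Fasn, the fatty acid synthase, had 568 and 621 CPM with tamoxifen, against 522 and 481 CPM with ethanol. Its log2 fold change was 0.24 ± 0.15 (SE), with 2 SE either way spanning -0.06 to 0.55, and -0.30 with GC correction. It is a GC-rich transcript (57.9%), like those of Srebf1 and Srebf2. Elovl6, which extends palmitate, had 290.1 and 263 CPM with tamoxifen, against 313 and 317 CPM with ethanol (-0.19 ± 0.15; 0.21 with GC correction).

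The stearoyl-CoA desaturases make monounsaturated fatty acids. Scd1 had 136 and 110 CPM with tamoxifen, against 389 and 286 CPM with ethanol. It fell 2.74-fold (-1.45 ± 0.18, SE; edgeR, adjusted p = 1.77e-04; -1.27 with GC correction). Scd2, the neighbouring isozyme, had 489 and 391 CPM with tamoxifen, against 533 and 561 CPM with ethanol (-0.31 ± 0.16; edgeR, adjusted p = 0.133). It was called lower with the replicate number as a block (-0.32; edgeR, adjusted p = 0.0226). Per kilobase of transcript, the level of Scd1 relative to that of Scd2 was 0.315 and 0.317 with tamoxifen, against 0.824 and 0.574 with ethanol. The tamoxifen libraries thus shared a lower ratio, outside the range of the ethanol libraries.

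The front-end desaturases make polyunsaturated fatty acids. Fads1 had 63.8 and 58.6 CPM with tamoxifen, against 99.7 and 99.6 CPM with ethanol (-0.70 ± 0.14, SE; edgeR, adjusted p = 0.00212; -0.87 with GC correction). Fads2 had 51.1 and 50.3 CPM with tamoxifen, against 52.8 and 52.6 CPM with ethanol, with 2 SE either way spanning -0.34 to 0.23 on the log2 scale. It had -0.38 with GC correction, and was called lower when the replicate number was also a block (edgeR, adjusted p = 0.0269) or ethanol replicate 1 was also left out (-0.42). Per kilobase of transcript, the level of Fads1 relative to that of Fads2 was 1.14 and 1.06 with tamoxifen and 1.72 and 1.73 with ethanol.

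The decreases differed in how far they rested on single libraries. How many of all called genes stay called when each library is left out was not counted. The counts below therefore describe these genes only. Of the 14 genes that fell, 10 were called without each of the 4 libraries in turn: Idi1, Fdft1, Sqle, Cyp51, Msmo1, Nsdhl, Insig1, Stard4, Scd1 and Fads1. With GC correction and each library left out in turn, 6 were called every time: Fdft1, Msmo1, Insig1, Stard4, Scd1 and Fads1. Sqle (-0.65), Cyp51 (-0.65) and Nsdhl (-1.10) were not called in the corrected fit without tamoxifen replicate 2. Of the 5 that rose, 3 were called without each library (Mvk, Pmvk and Srebf1), and none of these was called with GC correction on all 4 libraries. The ethanol libraries differed from each other by as much as some of these effects. The ratio of ethanol replicate 2 to replicate 1 ranged from 0.629 (Nsdhl) to 1.38 (Lbr) over the 32 genes, and that of tamoxifen replicate 2 to replicate 1 from 0.777 (Nsdhl) to 1.15 (Stard4).

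**Figure D5:**
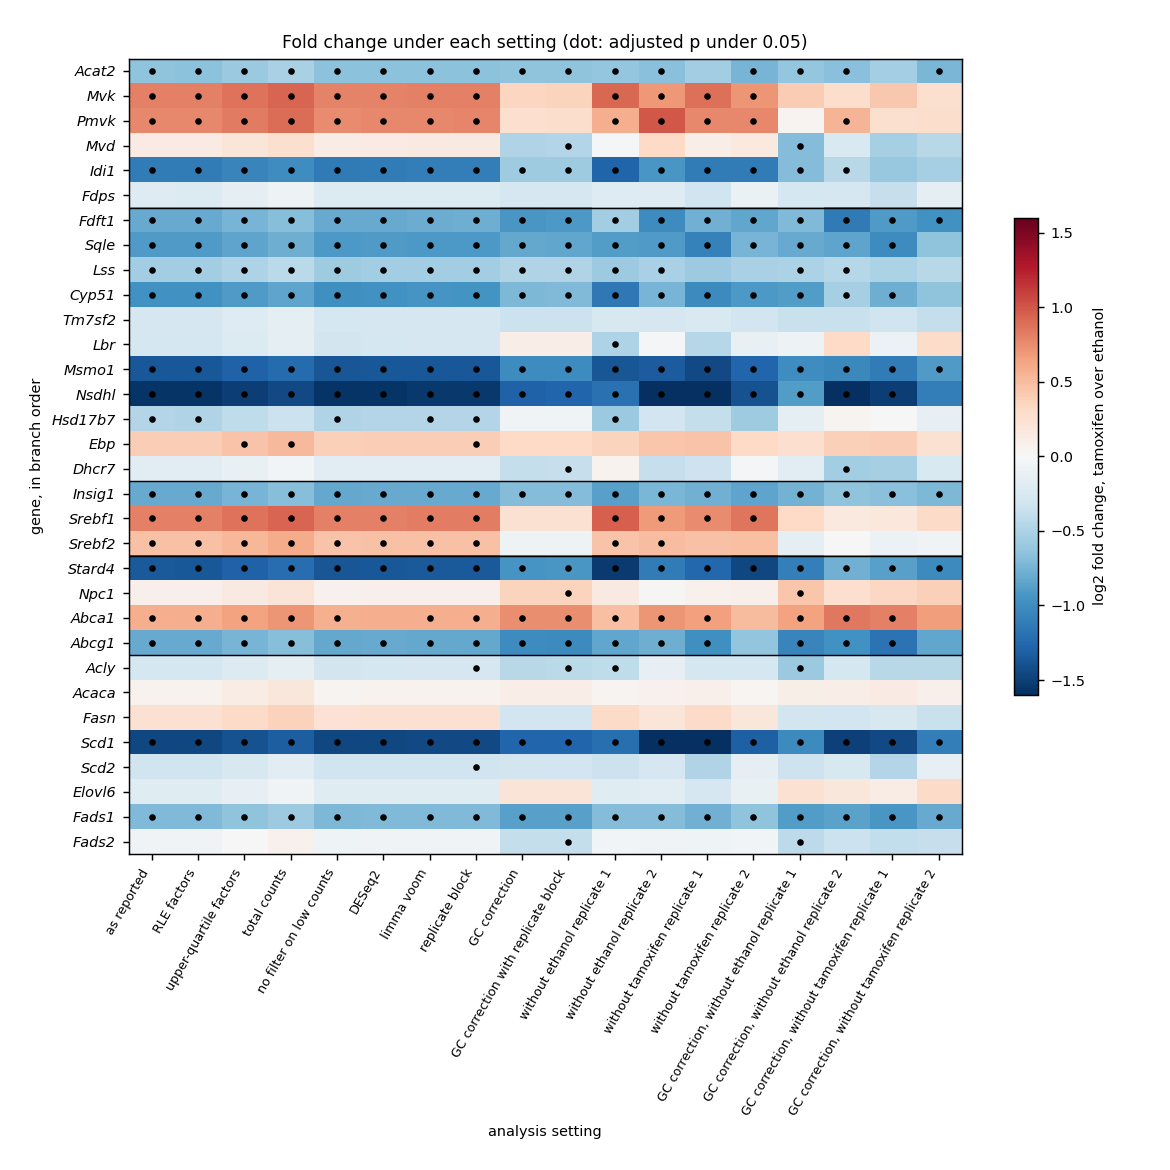
Log2 fold change of tamoxifen over ethanol (colour) for the 32 tested genes (vertical axis, in pathway order, groups parted by lines) under each analysis setting (horizontal axis). Dots mark an adjusted p under 0.05. Fdft1, Msmo1, Insig1, Stard4, Scd1 and Fads1 carry a dot in every column, and Mvk, Pmvk and Srebf1 lose theirs in most columns with GC correction.

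Genes next to the pathway were read from the same fit. Of 17 tested genes of SREBP processing and its cofactors, 3 rose and 3 fell (median 0.06 log2), 17.6% in each direction and below the 21.5% higher and 22.9% lower of all genes. The GC correction gave 4 higher (23.5%, above the 9.88% of all genes) and 1 lower (5.88%, below the 10.7% of all genes). Scap, the sterol sensor that escorts SREBP to the Golgi, had 68.3 and 74.1 CPM with tamoxifen, against 34.7 and 28.4 CPM with ethanol (1.18 ± 0.16, SE; edgeR, adjusted p = 2.19e-04; 0.57 with GC correction, where the call ended when tamoxifen replicate 1 (0.61) or 2 (0.53) was left out). Of the NF-Y subunits, Nfyc rose (0.67 ± 0.15, and 0.67 with GC correction, but not called in either fit without tamoxifen replicate 2, with 0.55 and 0.56) and Nfyb fell (-0.83 ± 0.16; -0.34 and not called with GC correction). Rnf139, a ubiquitin ligase of the endoplasmic reticulum, also fell (-0.76 ± 0.16; -0.18 and not called with GC correction).

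Of 13 genes that use farnesyl pyrophosphate for prenyl groups, ubiquinone and dolichol, 4 rose and 4 fell (30.8% each, against 21.5% higher and 22.9% lower of all genes), and 1 was called lower with GC correction (7.69%, against 10.7%). Pdss1 (-0.86 ± 0.18, SE) and Ggps1 (-0.70 ± 0.15), which build longer isoprenoid chains, and the dolichol gene Nus1 (-0.55 ± 0.16, not called without tamoxifen replicate 1) fell, and the methyltransferase gene Icmt rose (0.60 ± 0.15). None of these 4 calls held with GC correction (-0.14, -0.03, -0.03 and 0.32).

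Of 23 tested genes of sterol uptake, esterification and transport outside the 33, 10 rose and 6 fell, or 43.5% higher against 21.5% of all genes and 26.1% lower against 22.9%. With GC correction 4 rose and 1 fell, or 17.4% against 9.88% and 4.35% against 10.7%. Apoe, the lipoprotein ligand, had 960.3 and 1127 CPM with tamoxifen, against 439 and 350.3 CPM with ethanol (1.40 ± 0.17, SE; edgeR, adjusted p = 1.52e-04; 0.77 with GC correction). The lipoprotein receptor genes Lrp1 (1.20 ± 0.16; 0.65 with GC correction) and Lrp8 (-1.28 ± 0.16; -1.11) moved in opposite directions. Rxrb, a partner of LXR, rose (1.23 ± 0.16; 0.48). Without tamoxifen replicate 2 the GC-corrected calls of Apoe (0.67), Lrp1 (0.48) and Rxrb (0.42) ended, and that of Rxrb also ended without tamoxifen replicate 1 (0.53).

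Of 28 other tested genes of fatty acid synthesis, elongation and activation, 11 fell and 4 rose, with a median of -0.31 log2. That is 39.3% lower against 22.9% of all genes and 14.3% higher against 21.5%, and with GC correction 8 fell and 1 rose (28.6% against 10.7%, and 3.57% against 9.88%). Me1, the malic enzyme that supplies NADPH, had 32.7 and 29.4 CPM with tamoxifen, against 65.2 and 61.1 CPM with ethanol (-1.02 ± 0.15, SE; edgeR, adjusted p = 3.50e-04; -0.70 with GC correction). The elongase genes Elovl4 (-1.93 ± 0.26; -1.47) and Elovl7 (-1.25 ± 0.19; -0.74) and the acyl-CoA synthetase gene Acsl5 (-1.13 ± 0.18; -0.98) also fell in both fits, although the GC-corrected calls of Me1 (-0.60) and Elovl7 (-0.63) ended without tamoxifen replicate 2.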

How the data were processed

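Poly(A) RNA was sequenced from 4 mouse embryonic stem cell libraries, grouped by the treatment in the labels. The values are counts of reads per gene deposited by the authors, 1 file a library; per the submitters' processing notes CASAVA 1.8.2, Bowtie 1.1.1, HTSeq, DESeq2 and the build mm9 were used, while the sources used here give neither annotation nor strand setting, so overlapping and antisense genes cannot be told apart. The line of reads in no gene was left out of library sizes and tests.

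The 24428 genes were filtered with filterByExpr (14479 kept), scaled by TMM factors and tested with edgeR 4.0.16 in R 4.3.3 (robust quasi-likelihood test, group only, Benjamini-Hochberg adjustment over all genes tested, threshold 0.05). SE was taken as the size of the log2 fold change divided by the root of its F statistic. The test leaves 2 residual degrees of freedom before sharing across genes. GC content and length are of the longest GENCODE M21 transcript, matched by symbol for 23535 genes and by synonym for 523, with 99.4% of tested genes matched; the GC correction subtracts a loess curve (span 0.5, degree 1) of each library. The fit was also run on simulated counts with a common spread for all genes and no GC trend. Such counts cannot show its error rate in the present libraries. Alternatives were RLE, upper-quartile and total-count scaling, no filter, DESeq2 1.42.0, limma 3.58.1 voom, a replicate block, the GC correction and leaving out each library. The genes, lists and rules were chosen with earlier results of these data known; of each neighbouring list, up to 4 called genes are named, those of smallest adjusted p whose mean log2 CPM reached 2. Replicates of a group differed beyond sampling noise, with a chi-square per degree of freedom of 10.4 for tamoxifen and 37.1 for ethanol. Promoters are from the RefSeq table (GRCm38.p6), in which 24 of 33 genes matched; Fads1, Stard4, Npc1, Scd2, Sqle, Abcg1, Fdft1, Scd1 and Fdps did not.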

Additional observations from a re-analysis of the deposited data

How the results depend on the processing

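Counts are given as higher and lower in tamoxifen libraries, against 5 and 14 of the 32 genes and 3119 and 3322 of all genes as reported. RLE factors, no filter on low counts and limma voom left the 32 genes at 5 and 14, upper-quartile factors and total counts at 6 and 13, and DESeq2 at 4 and 13. The GC correction gave 1 and 13, and 1430 and 1549 over all genes. Leaving out each library in turn gave 3 to 5 higher and 11 to 16 lower, and 1800 to 3598 higher and 2055 to 3728 lower over all genes. The counts over all genes were 2085 and 2055 without tamoxifen replicate 1 and 1800 and 2088 without tamoxifen replicate 2. With the GC correction as well, the ranges were 0 to 2 higher and 7 to 16 lower, and 557 to 1811 higher and 632 to 2090 lower over all genes (1511 and 2090 without ethanol replicate 2, 1897 lower without ethanol replicate 1, 705 and 848 without tamoxifen replicate 1).

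The replicate numbers are shared by the groups, but the labels do not say that they mark a common culture or day. Deviations from the group means correlated between ethanol replicate 1 and tamoxifen replicate 1 across 14479 genes (r = 0.22). With 2 libraries a group, the replicate 2 pair gives the same value by construction and adds no further evidence. With the replicate number as a block 6 of the 32 genes were higher and 16 lower, and 3919 and 4168 of all genes. With the block and the GC correction together 2 were higher and 17 lower, and 2150 and 2350 of all genes.

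By group, the mevalonate pathway went to 0 higher with GC correction, with or without the block (0 or 1 when a library was also left out), and to 1 lower without tamoxifen replicate 1 (0 to 3 with GC correction). The sterol branch had 1 higher with upper-quartile factors, total counts or the block, and 2 to 7 lower with GC correction and a library left out. SREBP regulators had 0 higher with GC correction in all 6 such fits, and 1 without either tamoxifen library. Uptake and transport had 0 higher by DESeq2 and without tamoxifen replicate 2, 2 with GC correction and the block (0 to 2 with a library left out), and 1 lower without tamoxifen replicate 2. Fatty acid synthesis had 4 lower with the block, alone or with GC correction, and 2 to 4 with GC correction and a library left out. Over the neighbouring lists together, 29 higher and 29 lower of 117, the GC correction gave 11 and 14, and 18 and 25 with the block. Leaving out a library gave 14 to 28 higher (18 without tamoxifen replicate 1, 14 without tamoxifen replicate 2), and with GC correction 2 to 15 higher (10 without ethanol replicate 2, 6 without tamoxifen replicate 1) and 7 to 19 lower (9 without tamoxifen replicate 1).

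Where a value was called as reported or under the alternative, the sign turned only with GC correction, as follows. Mvd was -0.47 with the block and -0.69 without ethanol replicate 1. Srebf2 was -0.079, -0.078 with the block, and -0.15, -0.0097, -0.099 and -0.061 without ethanol replicates 1 and 2 and tamoxifen replicates 1 and 2, in this order. Hsd17b7 was 0.045 without ethanol replicate 2 and 0.0094 without tamoxifen replicate 1, and Pdss1 was 0.0032 without ethanol replicate 1. Ggps1 was 0.050 without tamoxifen replicate 2 and 0.017 without ethanol replicate 2, and Nus1 was 0.055 and 0.053 without ethanol replicate 2 and tamoxifen replicate 1. Cept1 was 0.039, 0.040 with the block, and 0.024, 0.057 and 0.13 without tamoxifen replicates 1 and 2 and ethanol replicate 2. Agpat1 was -0.062, -0.064 with the block, and -0.12, -0.0070 and -0.15 without ethanol replicates 1 and 2 and tamoxifen replicate 1. Among values called in neither fit, Fasn (-0.30), Elovl6 (0.21) and Lbr (0.11) changed sign with GC correction, Mvd (-0.014) and Dhcr7 (0.052) without ethanol replicate 1, and Fads2 with upper-quartile factors (0.0058) and total counts (0.071). The cause was not tested.

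A fit without 1 library assumes that the lone sample varies like the other group. With 2 libraries a group, 2 SE either way spanned at least 0.56 on the log2 scale for every gene tested among the 32. Low counts limit Abca1, Abcg1, Mvk and Tm7sf2 most.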

Other observations

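Fatty acid breakdown, the opposite route to synthesis, was near the shares of all genes. Of 17 genes tested 4 rose (23.5%, against 21.5% of all genes) and 3 fell (17.6%, against 22.9%). With GC correction 2 rose and 2 fell (11.8% each, against 9.88 and 10.7%). Acads, the short-chain acyl-CoA dehydrogenase of mitochondria, had 35.2 and 42.0 CPM with tamoxifen, against 15.7 CPM in each ethanol library (log2 fold change 1.30 ± 0.16, SE; edgeR, adjusted p = 1.59e-04; 0.64 with GC correction, where the call ended without tamoxifen replicate 2, with 0.53). Acaa1a, a peroxisomal thiolase (0.86 ± 0.19), and Acadvl, the very long-chain dehydrogenase (0.72 ± 0.17), also rose, but not with GC correction (0.47 and 0.44) or without tamoxifen replicate 2 (0.68 and 0.63). Hadh, a dehydrogenase of mitochondrial oxidation, fell (-0.49 ± 0.16; -0.57 with GC correction). That call ended with upper-quartile factors (-0.43), with total counts (-0.36) and without tamoxifen replicate 2 (-0.30, and -0.38 with GC correction).

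Glycerolipid synthesis had 4 genes that rose and 2 that fell among 19 tested (21.1 and 10.5%, against 21.5 and 22.9% of all genes), and 1 lower (5.26%, against 10.7%) and none higher with GC correction. Lpin1, a phosphatidate phosphatase and SREBP target, had 56.0 and 51.6 CPM with tamoxifen, against 103 and 98 CPM with ethanol (-0.90 ± 0.14, SE; edgeR, adjusted p = 5.66e-04; -0.92 with GC correction). The acyltransferase genes Agpat1 (0.55 ± 0.14) and Agpat3 (0.49 ± 0.15) rose and the phospholipid synthesis gene Cept1 fell (-0.67 ± 0.16), but none of these was called with GC correction (-0.06, 0.19 and 0.04). Without tamoxifen replicate 1 neither Agpat1 (0.48) nor Agpat3 (0.42) was called, nor was Agpat3 without tamoxifen replicate 2 (0.56).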
